A study of Mus musculus with 2 samples.

Results

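Keratin and keratin-associated genes were taken from the mouse gene table by symbol, as Krt or Krtap followed by a digit. This gave 111 genes, 55 Krt and 56 Krtap, of which 109 are protein-coding. Primary chondrocytes had been isolated with collagenase from the ribs of newborn wild-type CD1 mice and cultured overnight. 1 library of chromatin precipitated with an antibody against tri-methylated lysine 27 of histone H3 (H3K27me3) and 1 library of input DNA were sequenced, with 17237574 and 17004082 tags after filtering. The libraries were named by their titles. Their antibody tags read the other way round, with H3K27me3 on the input and input on the precipitated DNA, and the titles were followed. Peaks of the library titled as ChIP over that titled as input lay over 14 of 20 transcription and splicing regulators of epithelia and hair, and near none of 16 chondrocyte genes. Of all protein-coding genes, 14.2% had a peak over the gene and 20.7% one within 5 kb. These lists were chosen with earlier results of these data known, so which label is right was not tested. There were no replicates, so no value below has a spread between samples and no test was run. How many animals were pooled is not given in the sources used here. The measurement was a list of 19359 peaks, stretches of the genome with more ChIP than input reads. A gene was counted as marked when the deposited annotation joined a peak to it within 5 kb.

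Polycomb repressive complex 2 (PRC2) deposits H3K27me3, a mark of silenced chromatin that often lies over lineage-specific genes in cells of other lineages. Keratins are the intermediate filament proteins of epithelial cells, and each filament pairs a type I with a type II keratin. The type I genes form a cluster on mouse chromosome 11 and the type II genes a cluster on chromosome 15, with Krt18 the type I gene that lies among the type II genes. Keratin-associated proteins (Krtap) are small matrix proteins that embed the keratin filaments of hair. Cartilage is not an epithelium.

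Of the 111 members, 54 (48.6%) were marked. Among protein-coding genes the share was 53 of 109 members (48.6%) against 20.7% of 21887 genes over the whole table. Of the protein-coding genes no longer than Krt78, the longest member, 18.3% were marked. Of the Krt genes 29 of 55 (52.7%) and of the Krtap genes 25 of 56 (44.6%) were marked. The rule counts any peak near a gene, and for 25 of the 111 members (22.5%) a peak overlapped the gene itself, as it did for 14.2% of all protein-coding genes. By the deposited gene positions a peak covered the 5′ end of 10 members (9.01%), against a background of 4.45%. The other 29 marked members had peaks in the flanking sequence alone by the deposited positions, Krt10 among them, although a peak lies inside Krt10 as the gene table gives it. The closest peak of a marked member lay at most 4.5 kb away, at Krtap3-2. The nearest unmarked member beyond the limit was Krt84 at 6.09 kb, followed by Krt16 at 6.73 kb.

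Genes of cartilage were read beside the labelled cell type. None of 16 chondrocyte genes had a peak, among them the cartilage collagen Col2a1, the proteoglycan Acan and the transcription factor Sox9. Over all protein-coding genes 20.7% were marked. Most genes thus have no peak, so its absence at these genes cannot establish the cell type, which was not tested. In a bulk sample, a mark carried by fewer cells and a weaker mark in every cell cannot be told apart.

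The 6 keratins of simple epithelia, the single-layered linings of ducts, gut and glands, separated by chromosome. The 3 on chromosome 11 (Krt19, Krt20 and Krt23) were all marked over the gene body, and the 3 on chromosome 15 (Krt7, Krt8 and Krt18) had no peak. Krt19, a keratin of ductal epithelia, lay almost whole under a single peak at chr11:100141209-100148133. This peak was 6.93 kb wide, was enriched 3.15-fold over the input with a mean q-value of 0.0424, and covered 92.2% of the gene by its gene table position. The deposited annotation places this peak inside the gene, so Krt19 is not among the members counted with a covered 5′ end, although the gene table start lies under the peak. Krt20, a keratin of gut and urothelium, had 4 peaks of 8.81 kb in all with fold enrichments up to 3.26, 1 of them over its 5′ end. Krt23 had 3 peaks of 6.87 kb in all, and the peak of highest enrichment of all members (3.86-fold, q-value 0.00236) was among them. Krt8 and Krt18, which pair in the first epithelia of the embryo, were 62.8 kb and 35.1 kb from the nearest peak. Krt7, a keratin of glandular and ductal epithelia, was 6.91 kb from one. Since no peak was called below a pileup of 9.86 fragments, a weaker mark at these 3 genes was not detectable at this depth.

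The sequences just before these genes show how their starts differ in CG content, a feature the choice of genes did not use. Each window holds the 250 bases upstream of the gene start, from RefSeq on GRCm38.p6, written 5′ to 3′ on the strand of the gene, with every CG dinucleotide in capitals. No entry was found for Krt19. The first 3 are the unmarked simple-epithelium keratins on chromosome 15, and the next 2 are the marked ones on chromosome 11.
Krt7: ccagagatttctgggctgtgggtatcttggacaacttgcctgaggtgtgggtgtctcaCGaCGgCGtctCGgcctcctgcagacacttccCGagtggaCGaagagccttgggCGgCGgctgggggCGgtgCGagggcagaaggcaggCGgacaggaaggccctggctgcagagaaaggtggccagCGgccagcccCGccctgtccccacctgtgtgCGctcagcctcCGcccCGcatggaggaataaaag
Krt8: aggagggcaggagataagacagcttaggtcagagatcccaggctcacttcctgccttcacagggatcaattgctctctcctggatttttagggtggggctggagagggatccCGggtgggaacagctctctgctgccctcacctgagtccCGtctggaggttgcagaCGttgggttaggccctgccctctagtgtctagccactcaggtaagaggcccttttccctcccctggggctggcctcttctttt
Krt18: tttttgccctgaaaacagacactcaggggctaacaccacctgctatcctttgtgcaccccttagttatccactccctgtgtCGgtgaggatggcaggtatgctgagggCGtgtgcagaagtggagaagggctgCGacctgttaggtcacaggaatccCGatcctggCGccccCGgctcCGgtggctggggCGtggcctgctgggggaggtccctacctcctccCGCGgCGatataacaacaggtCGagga
Krt20: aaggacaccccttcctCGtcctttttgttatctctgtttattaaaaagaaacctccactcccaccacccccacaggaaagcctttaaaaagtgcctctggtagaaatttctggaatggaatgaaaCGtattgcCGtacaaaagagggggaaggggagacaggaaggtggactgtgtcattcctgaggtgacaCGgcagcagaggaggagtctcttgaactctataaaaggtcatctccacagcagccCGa
Krt23: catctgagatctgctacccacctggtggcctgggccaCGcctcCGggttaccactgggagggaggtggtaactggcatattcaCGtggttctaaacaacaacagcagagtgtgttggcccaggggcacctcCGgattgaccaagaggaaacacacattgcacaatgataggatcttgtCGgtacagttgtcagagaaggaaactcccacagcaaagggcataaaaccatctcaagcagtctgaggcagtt

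Krt7 (chr15:101412153-101412402, plus strand) held 16 CG and Krt18 (chr15:102027966-102028215, plus strand) 12, the highest counts among the 87 members with such a window. Krt8 (chr15:102004343-102004592, minus strand) held 3, so the unmarked genes did not share a CG-rich start. Krt20 (chr11:99438154-99438403, minus strand) and Krt23 (chr11:99493121-99493370, minus strand) held 5 each. A peak lay over the whole window of Krt20, while the nearest peak to that of Krt23 was 9.76 kb away.

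Inner root sheath and companion layer keratins, which form the layers that mould the growing hair, were the most completely marked class. All 9 of 9 had a peak within 5 kb, 4 on chromosome 11 and 5 on chromosome 15, and 8 had a peak over the gene body. All but Krt75 lie in the stretches from Krt222 to Krt39 and from Krt6a to Krt77. In these stretches every member of any class was marked, so class and position cannot be told apart. Krt28 had 4 peaks of 11.3 kb in all, of which the strongest was enriched 3.51-fold (q-value 0.00825). In Krt27 the peaks covered 71.9% of the gene, and in Krt28 56.8%. Krt26 had a peak of 3.45-fold with the lowest q-value of the class, 0.0052, but only 5.51% of the gene was covered. Krt25, with 17.9% covered, and its type II partner Krt71, with 20.8%, were both marked. On chromosome 15, Krt74 had 4 peaks of 6.66 kb in all and 35.1% covered, Krt73 had 14.6% and Krt72 7.02%. The gene table lists Krt74 as a transcribed pseudogene. Krt75, the companion layer keratin, had a peak of 2.96-fold in its flank alone, at a q-value of 0.0988.

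The keratins of stratified epithelia and skin were marked in 10 of 20 cases, 5 of 10 on each chromosome. The most widely covered were the epidermal type II genes Krt1 and Krt77, which lie next to each other. Krt77, a sweat gland keratin, had 5 peaks of 14.0 kb in all over 70.5% of the gene, and all 5 passed a limit of 0.05 on the q-value. Krt1, made in the suprabasal epidermis, had 3 peaks of 13.3 kb in all over 65.0% of the gene. Its type I partner Krt10 had 1 peak of 1.31 kb downstream by the deposited annotation, at 3.47-fold and a q-value of 0.00933. The gene table gives Krt10 a longer record, with a further peak of 662 bp inside it and peaks of 2809 bp and 1563 bp within 5 kb, which the deposited annotation joined to no gene symbol. Krt12, the corneal keratin, had 4 peaks of 12.3 kb in all and 42.1% of its length covered. Krt24 had 4 peaks of 4.0 kb in all with enrichments up to 3.38-fold. Krt9, the keratin of palms and soles, had 2 peaks of 1.65 kb in all, 1 over its 5′ end, neither with a q-value at or below 0.05. Krt2, of the upper epidermis, had 3 peaks of 2.56 kb in all.

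Krt5, a keratin of the basal epidermal layer, had a single peak of 1.17 kb, 1.21 kb from the gene, with a q-value of 0.069, and its partner Krt14 had none within 9.28 kb. Krt15, another basal keratin, had a peak of 0.818 kb outside the gene. Krt6a, induced in wounded and hyperproliferative skin, had a peak of 0.661 kb upstream with a q-value of 0.062, while its partner Krt16 had none. For the mucosal pair Krt4 and Krt13, as for Krt8 and Krt18, neither gene was marked. Of 6 type II and type I pairs examined, both partners were therefore marked in 2 (Krt1 with Krt10, Krt71 with Krt25), the type II partner alone in 2, and neither in 2.

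Hair and nail shaft keratins, the hard keratins of the hair cortex and cuticle, were marked in 6 of 15 cases, 5 of 9 on chromosome 11 and 1 of 6 on chromosome 15. Only Krt81 had a peak over its body, of 0.974 kb at 3.04-fold over 20.7% of the gene. The 5 on chromosome 11 were marked in their flanks alone. Krt34 had 4 peaks of 6.24 kb in all and Krt31 1 peak of 4.21 kb, at 0.102 kb and 0.134 kb from the genes. Krt39 had 3.45 kb of peaks, and the paralogs Krt33a and Krt33b 0.93 kb and 1.08 kb. The highest fold enrichment at any of the 6 was 3.28. Of the 5 Krt genes outside these classes, Krt222 alone was marked by symbol, through a peak of 0.927 kb at 3.04-fold. Krt90 is listed in the deposited annotation under an older symbol, with the same 1133 bp peak that marked Krt75 lying inside it.

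**Figure D1:**
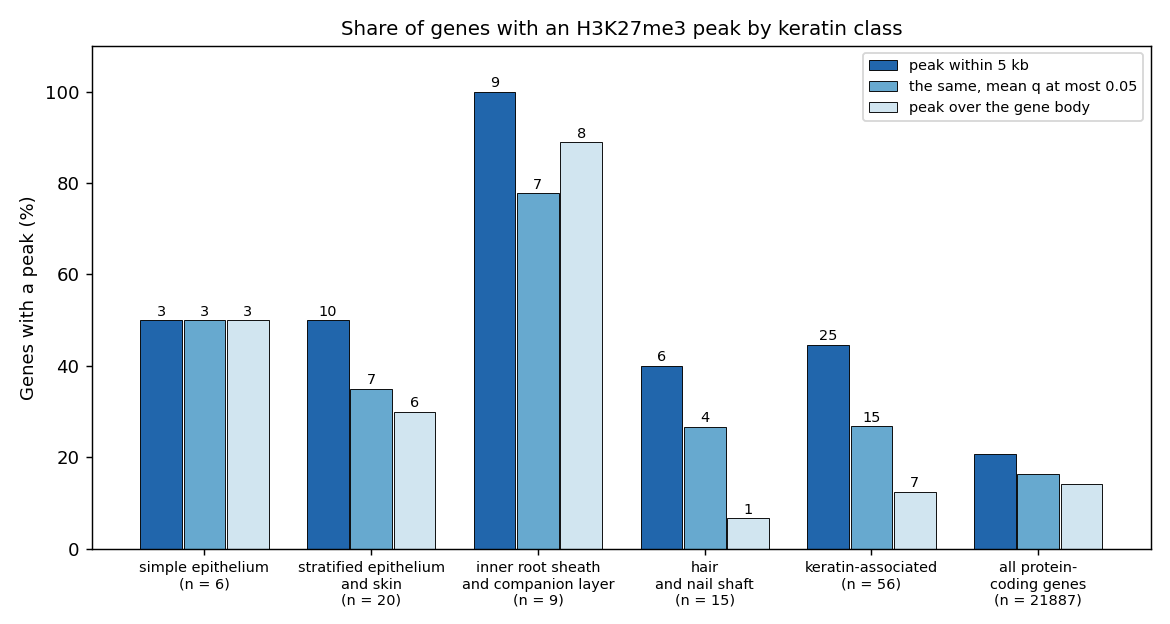
The bars show the percent of genes of each keratin class, and of all protein-coding genes, with a peak within 5 kb, with such a peak of q-value 0.05 or lower, and with a peak over the gene body, with the number of genes above each class bar. The inner root sheath and companion layer class reached 100% and 88.9% for the first and last measure, against 20.7% and 14.2% over all protein-coding genes, and the hair and nail shaft class 40% and 6.67%.

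Keratin-associated genes were marked according to chromosome. On chromosome 11, 20 of 23 (87.0%) were marked, while on chromosome 16 none of 24 had a peak. Of the 23 on chromosome 11, 11 (47.8%) had a peak with a q-value of 0.05 or lower, against 16.4% of all protein-coding genes. A peak overlapped the gene in 5 of them (21.7%), and 15 were marked in the flank alone. On chromosome 7, 4 of the 5 Krtap5 genes were marked, on chromosome 10 Krtap12-1 alone of 3, and the gene on chromosome 1 was not. The background shares of non-member genes differed less, at 27.0% on chromosome 11, 19.1% on chromosome 16 and 17.7% on chromosome 7. A peak overlapped the gene itself in 7 of the 56 (12.5%), a share near the 14.2% of all protein-coding genes. The 7 were Krtap3-3, Krtap1-3, Krtap4-1, Krtap16-1, Krtap17-1, Krtap5-2 and Krtap5-4. The median length of a Krtap gene was 0.833 kb against 7.07 kb for the Krt genes. The widest peak at any member, 10.4 kb at 3.20-fold, lay between Krtap9-3 and Krtap2-4, and these had 14.1 kb and 13.3 kb of peaks within 5 kb. The strongest peaks were those at Krtap5-2 (3.49 kb wide, 3.72-fold, q-value 0.00324) and at Krtap17-1 (3.64-fold, q-value 0.00662). Krtap5-1 and Krtap5-4 had 5.12 kb and 6.50 kb of peaks.

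Krtap16-1 had 5.99 kb and Krtap1-3 5.75 kb of peaks in all, and a peak lay over the 5′ end of each. Krtap3-1, Krtap4-8 and Krtap4-6 had 4.0, 3.86 and 2.65 kb, and Krtap1-4 2.03 kb. The paralogs Krtap4-2 and Krtap4-7 shared the same 1.92 kb of peaks, and Krtap3-3 and Krtap3-2 shared 1 peak of 1.06 kb. Krtap1-5, Krtap31-1 and Krtap4-13 had 1 peak each of 1.53, 1.53 and 1.43 kb, and Krtap4-9 and Krtap4-16 1 peak each of 0.852 and 0.688 kb. The narrowest were those at Krtap4-1 (0.409 kb, 3.47-fold) and Krtap9-1 (0.32 kb, 3.51-fold). Krtap5-3 on chromosome 7 had 1.14 kb, and Krtap12-1 on chromosome 10 had 1.55 kb. Genes of 1 Krtap family can be similar in sequence, which was not measured here. How reads that match several positions were placed is not given in the sources used here, so the split of peaks between such genes is uncertain.

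The 95 peaks joined to members were of usual strength for this list. Their median fold enrichment was 3.12, with a range from 2.89 to 3.86, against 3.16 over all peaks and 3.18 over the 10238 peaks with a gene symbol. Their median width was 1.21 kb against 1.27 kb over all peaks. A q-value no higher than 0.05 was reached by 56 of the 95 (58.9%) and by 60.8% of all peaks. High values were fewer at the members. A q-value of at most 0.01 was found at 6 peaks (6.32%) against 11% of all peaks, and a width of 10 kb or more at 1 peak (1.05%) against 3.46%. Of the 115 pairs of a member and a peak, 38 had the peak downstream, 35 upstream, 21 inside the gene, 11 over the 3′ end and 10 over the 5′ end. The local input background under the member peaks was 2.75, the median over all peaks.

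The chromosome 11 cluster, from Krt222 to Krt42 at chr11:99232761-100269951, held 50 members with no gap over 200 kb between neighbours. In it, 38 members (76.0%) were marked. The cluster held 90 peaks, or 86.8 per Mb, and peaks covered 15.1% of its 1037 kb. In the 500 kb on its left the density was 8 per Mb and the cover 1.23%, and on its right 10 per Mb and 2.52%. Chromosome 11 as a whole had 15.4 per Mb and a cover of 3.82%, and the genome 7.36 per Mb and 1.78%. In windows of 1 Mb, the window that holds most of the cluster had 82 peaks, and 3 of 2732 windows had more, where the median window had 2. The peaks were many and separate, with a median gap of 4.15 kb. Joined over gaps of up to 5 kb they formed 39 domains, the widest of 53.4 kb. Members took 63 of the 90 peaks, and 21 had no gene symbol in the deposited annotation, 3 of them the peaks at the longer Krt10 record.

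**Figure D2:**
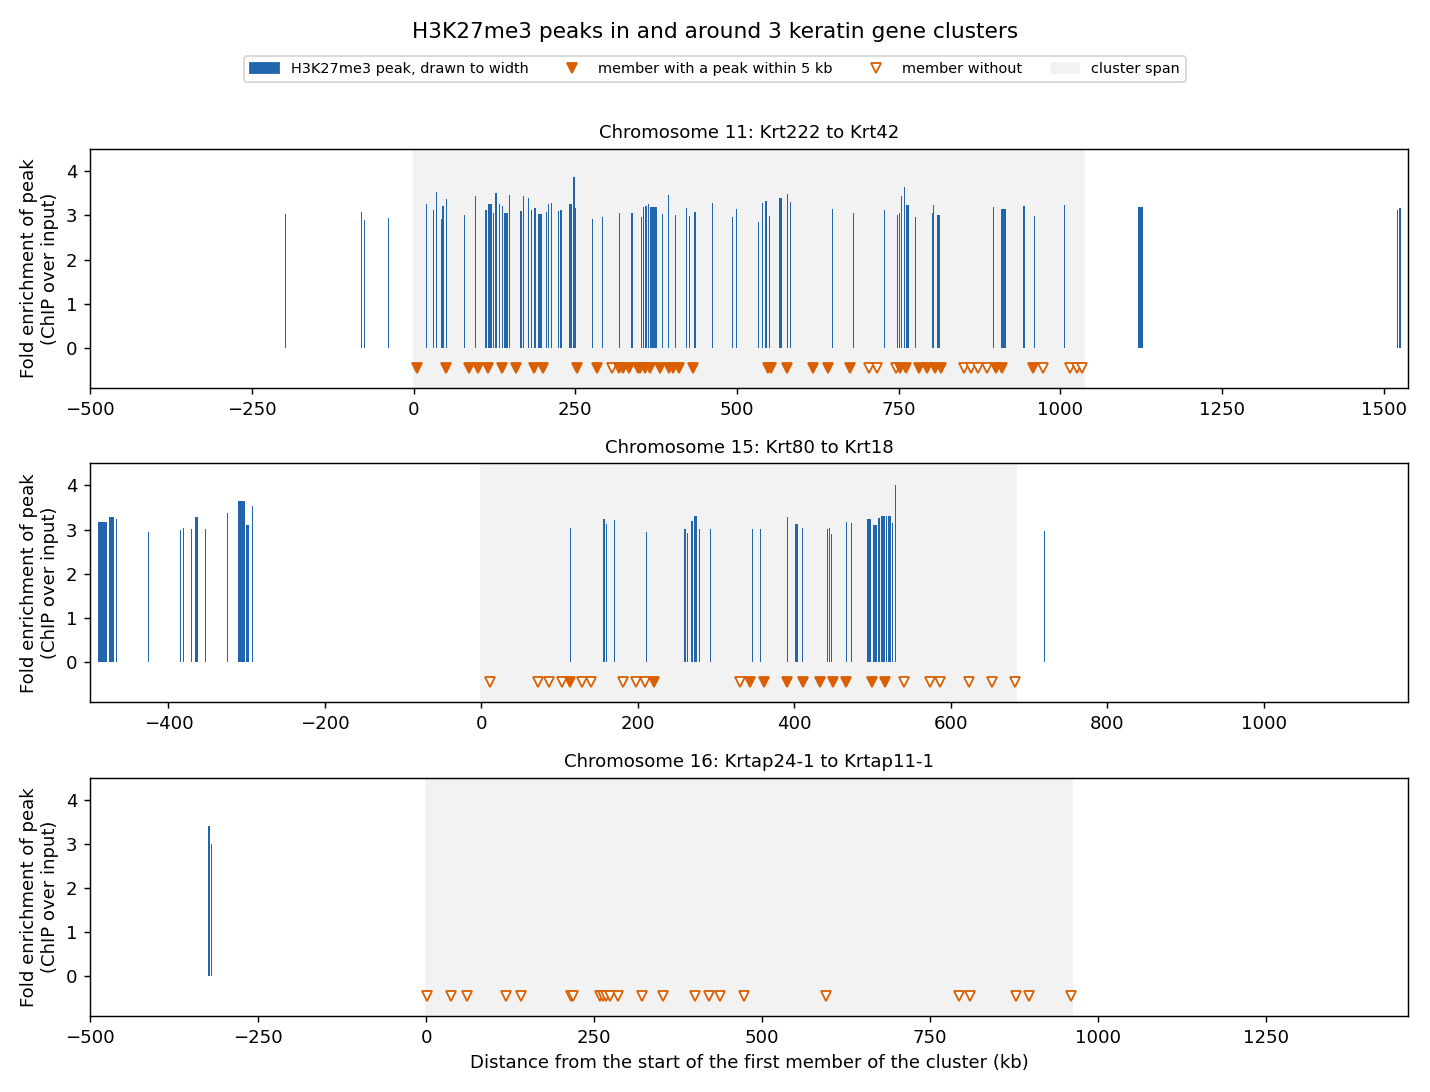
The horizontal axis is the distance in kb from the start of the first member of each cluster, and each bar is a peak drawn to its width, with its fold enrichment over the input on the vertical axis. Filled triangles are members with a peak within 5 kb and open triangles members without, with 90 peaks in the shaded chromosome 11 cluster, 38 in the chromosome 15 cluster and 0 in the chromosome 16 cluster.

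The chromosome 15 cluster, from Krt80 to Krt18 at chr15:101348315-102032026, held 27 members, of which 11 (40.7%) were marked, where 27.6% of the non-member genes of chromosome 15 were. It held 38 peaks in 684 kb, or 55.6 per Mb, with a cover of 9.30%. Its left flank was covered to the same extent, 9.31%, by 14 peaks, and its right flank to 0.291% by 1 peak. The whole chromosome had 6.40 peaks per Mb and a cover of 1.36%, and the left flank had 28 peaks per Mb. The widest joined domain in the cluster was 36.0 kb.

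The Krtap cluster on chromosome 16, from Krtap24-1 to Krtap11-1, held 24 members and no peak in 960 kb, and the 34 other protein-coding genes among them had none either. Peaks were absent from its right flank, and its left flank held 2. The small Krtap5 cluster on chromosome 7 held 19 peaks in 130 kb with a cover of 23.7%. Its left flank was also dense, with 36 peaks and a cover of 18.1%. The chromosome 10 cluster held 2 peaks.

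Marked members were not gathered at the cluster edges. Among the 5 outermost genes at each end, 7 of 20 members (35.0%) of both clusters were marked, against 42 of 57 (73.7%) of the inner members. This contrast depended on the 5 kb rule. A peak over the gene body was found at 6 of the 20 outermost members. Over all members of each cluster, the share with such a peak was 15 of 50 (30.0%) on chromosome 11 and 8 of 27 (29.6%) on chromosome 15. The ends differed. On chromosome 11 all 5 of the left end (Krt222, Krt24, Krt25, Krt26 and Krt27) were marked but only Krt9 of the 5 at the right end. On chromosome 15, Krt81 alone of the left 5 was marked and none of the right 5, and 10 of 17 inner members (58.8%). With the 3 outermost genes the counts were 3 of 12 and 46 of 65, and with the 10 outermost genes 18 of 40 and 31 of 37. On both chromosomes the outermost genes at the right end, Krt14, Krt16, Krt17 and Krt42 on chromosome 11 and Krt76, Krt4, Krt79, Krt78, Krt8 and Krt18 on chromosome 15, had no mark. The first member of the chromosome 15 cluster, Krt80, was 34.6 kb from the nearest peak, and the last of the chromosome 11 cluster, Krt42, was 23.5 kb from one.

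Marked genes ran in blocks. On chromosome 11 the first 11 members, from Krt222 to Krt39, were all marked, and then 18 in a row from Krtap3-3 to Krtap31-1, with only Krt40 between these runs. The run of 18 depended on the 5 kb rule and on weaker peaks. In it a peak overlapped the gene only at Krtap3-3, Krtap1-3 and Krtap4-1. Some of its members, such as Krtap3-2, Krtap1-5 and Krtap4-6, had no peak with a q-value of 0.05 or lower, so that limit breaks the run. Of all 23 Krtap genes on chromosome 11, 11 had such a peak. Krtap16-1 to Krt31 formed a run of 6 and Krt15 to Krt9 a run of 3. On chromosome 15 the longest run was 9 members from Krt6a to Krt77, whose 180 kb held 21 peaks and was covered to 21.6%. It was followed by 6 unmarked members from Krt76 to Krt18, whose 148 kb held no peak. Cut into 5 segments of equal length from left to right, the chromosome 11 cluster was covered to 26.3%, 21.2%, 10.9%, 11.1% and 6.15%. The 5 segments of the chromosome 15 cluster were covered to 1.27%, 9.74%, 11.9%, 23.6% and 0%. Cover was thus highest at the left of the first cluster and in the fourth segment of the second.

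**Figure D3:**
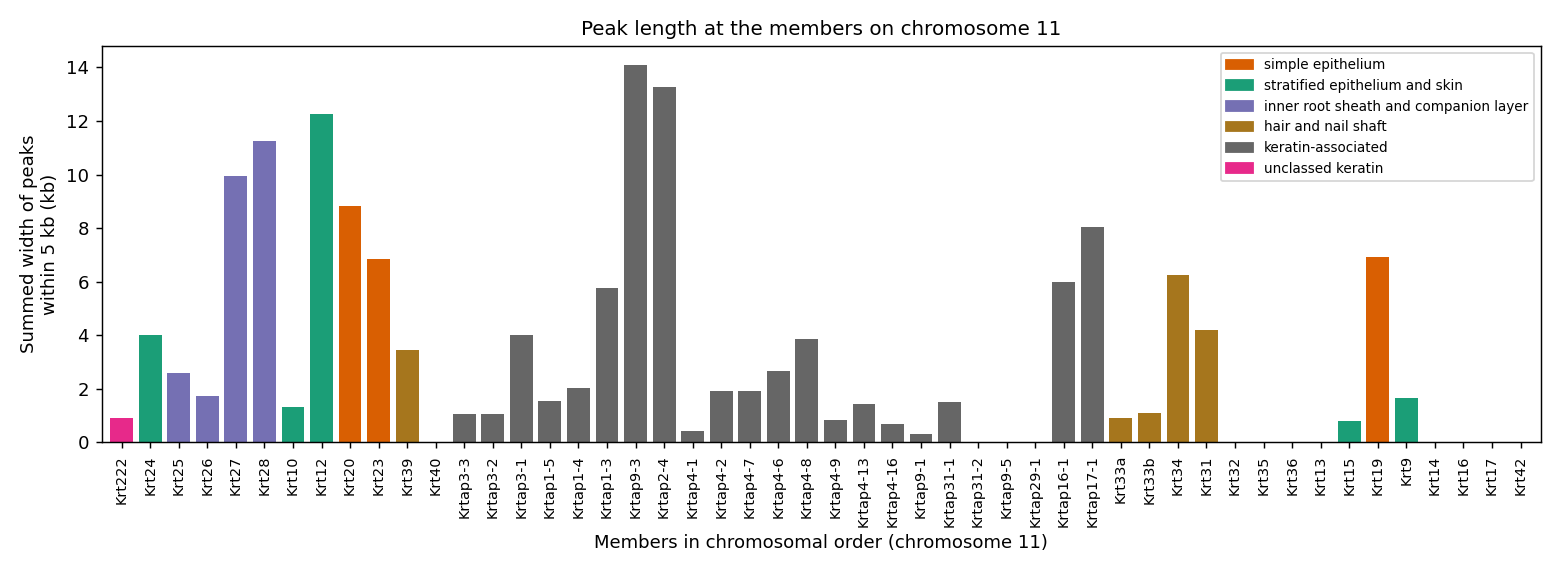
Each bar is the summed width in kb of the peaks within 5 kb of a member on chromosome 11, in chromosomal order and coloured by class, where a peak near several members counts for each. The first 11 members all have bars, up to 12.3 kb at Krt12, and the last 4 have none.

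**Figure D4:**
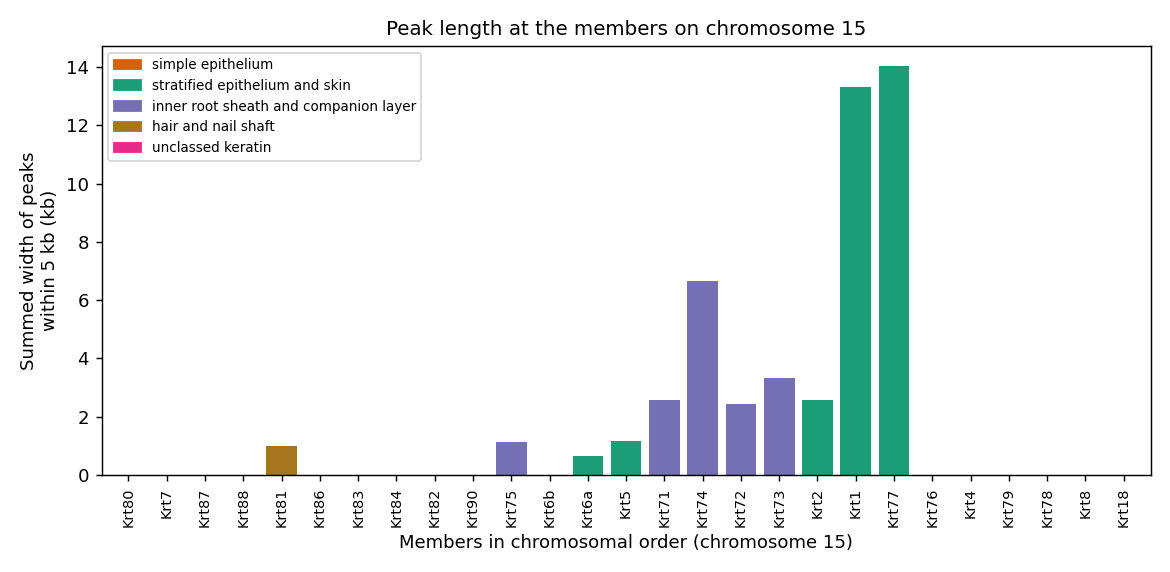
Each bar is the summed width in kb of the peaks within 5 kb of a member on chromosome 15, in chromosomal order and coloured by class. The bars of Krt1 (13.3 kb) and Krt77 (14.0 kb) are the tallest, and the 6 members to the right of Krt77 have none.

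The genes just outside both clusters were unmarked. Smarce1, a chromatin remodelling subunit 1.74 kb to the left of Krt222, was 14.3 kb from the nearest peak, and the translation factor gene Eif1 on the right of Krt42 was 31.1 kb from one. Beside the chromosome 15 cluster, Smim41 was 107 kb and the translation factor gene Eif4b 5.17 kb from the nearest peak. Inside the chromosome 11 cluster lay 15 other protein-coding genes, all with provisional symbols, of which 13 were marked. In the chromosome 15 cluster the only other one, Gm5414, was marked.

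CG content at the gene starts was low across the family. RefSeq windows were found for 87 of the 111 members, 43 of them marked. Their median was 3 CG in 250 bases, from 0 to 16, against 10 over 17492 protein-coding genes, of which 36.7% held 15 or more. Marked members had a median of 3 and unmarked ones of 2.5. The median over the protein-coding genes with a peak on the 5′ end was 10. A peak overlapped the windows of 8 members, and covered each of them whole (Krt27, Krt28, Krt20, Krtap3-3, Krtap16-1, Krt9, Krt77 and Krtap5-4). The window of Krt28 is shown as one under a peak, and that of Krtap4-6 as one of the 13 without a CG, with the CG dinucleotides in capitals.
Krt28: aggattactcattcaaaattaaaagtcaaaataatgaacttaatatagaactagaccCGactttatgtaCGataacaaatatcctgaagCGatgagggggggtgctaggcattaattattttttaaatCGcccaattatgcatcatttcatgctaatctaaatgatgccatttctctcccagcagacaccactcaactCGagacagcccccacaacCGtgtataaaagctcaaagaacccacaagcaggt
Krtap4-6: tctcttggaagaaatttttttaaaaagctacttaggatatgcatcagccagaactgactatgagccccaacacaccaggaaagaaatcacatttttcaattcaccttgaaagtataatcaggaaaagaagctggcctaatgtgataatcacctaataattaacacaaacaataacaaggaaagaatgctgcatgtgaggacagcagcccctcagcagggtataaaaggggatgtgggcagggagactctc

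Krt28 (chr11:99374904-99375153, minus strand) held 6 CG. Krtap4-6 (chr11:99665961-99666210, minus strand) lay next to a peak, 0.058 kb from it. The letters TATAAA, on either strand, were present in 66.7% of the member windows, in 12.4% of those of protein-coding genes and in 13.0% of all 27025 windows of this length. The share was 74.4% among marked and 59.1% among unmarked members, and among the Krt genes alone 61.9% of 21 marked and 26.7% of 15 unmarked ones. By class it was 87.5% of 8 windows for the inner root sheath and companion layer and 80.4% of 51 for the Krtap genes. The hair and nail shaft genes held it in 66.7% of 9 windows. For the stratified epithelium and skin genes the share was 23.1% of 13 and for the simple-epithelium genes 20% of 5. The unmarked chromosome 16 members held it in 69.6% of their windows.

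**Figure D5:**
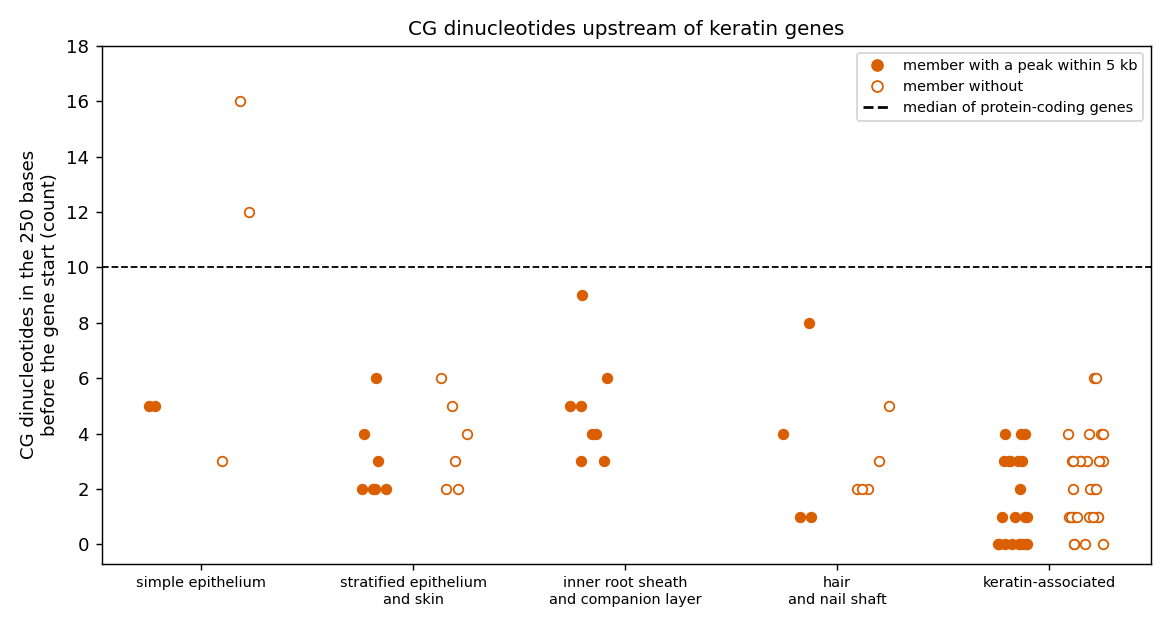
Each point is a member, with the number of CG dinucleotides in the 250 bases before its gene start on the vertical axis, by class, filled where a peak lay within 5 kb. All plotted members but Krt7 (16) and Krt18 (12) lie below the dashed line, the median of 10 over protein-coding genes.

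Other genes of epithelial and filament biology, from lists written by function, are set beside the 20.7% marked among all protein-coding genes. Of 15 other intermediate filament genes 5 were marked (33.3%), the neuronal genes Nefl, Nefm, Nefh, Ina and Prph, while the mesenchymal filament gene Vim was 212 kb from the nearest peak. Of 19 desmosome and plakin genes, whose proteins anchor keratin filaments, 5 (26.3%, near that background) were marked, among them Dsp with 5 peaks of 17.5 kb in all. Only 3 of 44 genes of the cornified envelope (6.82%) were marked, Lor, Tchh and Tchhl1. Of the 20 transcription and splicing regulators of epithelia and hair 14 (70.0%) were marked, all over the gene body. Trp63, Klf4, Klf5, Foxn1, Elf3 and Ehf were not marked. A 105 kb peak, at 3.81-fold, spanned far more than Hoxc13, which activates hair keratin genes and lies whole under it, and Tfap2a had 46.3 kb and Gata3 36.2 kb of peaks. Lef1, a transcription factor of Wnt signalling, had 11.4 kb of peaks. Among the members the largest summed peak length was the 14.1 kb of Krtap9-3.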

How the data were processed

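H3K27me3 ChIP and input chromatin of primary rib chondrocytes (1 library each, grouped by title) were compared. The authors trimmed and aligned the reads, removed duplicates and called broad peaks with MACS 2.1.0.20140616 (q-value cutoff 0.05, fragment length 294 bp). The submitters' processing notes also name CASAVA 1.8.4, Bowtie2 and mm10, without roles. The deposited pileup is a coverage signal, the mean number of ChIP fragments over a peak. The deposited fold enrichment is the ratio of pileup to local input background, with 1 added to both. The authors gave p-values and q-values as −log10, averaged over each peak. These averages were 0.05 or lower at 60.8% of peaks and reached 0.0991. A deposited table joined peaks to Ensembl genes within 5 kb, by a tool not given in the sources used here.

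Of 4987 deposited symbols 98.8% were found in the RefSeq gene table (GRCm38.p6), and all 54 of 54 marked members had a start or end within 1 kb in both sources. The table holds no exons, so peaks were placed only relative to gene ends. Cover was computed on gene table positions, and peak position on the deposited ones. Clusters were members at most 200 kb apart. With 1 library a group no test or p-value was computed. The depth (17237574 ChIP and 17004082 input tags) sets the lowest pileup called (9.86, over a genome background of 2.67). Counting scripts in Python 3.11.15 (pandas 2.3.3, NumPy 2.4.6) were tested on simulated data. Genes named were every marked member, all simple-epithelium members, the cluster ends and the neighbouring genes, and other genes where a listed count or distance needed them. The members and lists were chosen with earlier results of these data known. Alternatives were stricter q-value, fold and width limits, peaks over the gene body or 5′ end, other distances, other edge sizes and older symbols.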

Additional observations from a re-analysis of the deposited data

How the results depend on the processing

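The counts of marked members depended on the peak limit. With peaks of q-value 0.05 or lower the number of marked Krtap genes was 15 (26.8%) in place of 25, against 16.4% of all protein-coding genes at that limit. With a q-value of at most 0.01, 6 members stayed marked (4 Krt and 2 Krtap genes, 1 simple-epithelium keratin, 1 gene at a cluster edge) and 9.49 kb of peaks in both large clusters in place of 220 kb. With a fold enrichment of at least 3.5 these values were 5, 2, 3, 1, 0 and 7.55 kb. The shares of all protein-coding genes at these limits were not computed, so whether the members still exceeded them is not known. The q-value limit was met by 6.32% of the peaks at members and 11% of all peaks. The fold limit was met by 5.26% of the peaks at members and 9.56% of all peaks. With peaks at least 1 kb wide, 4 genes at cluster edges were marked in place of 7. Peaks over the gene body gave 25 members, 18 Krt and 7 Krtap genes. Peaks over the 5′ end gave 10 members, 6 Krt and 4 Krtap genes, 1 simple-epithelium keratin and 2 edge genes. Within 20 kb of gene table positions, 44 Krt genes and 12 edge genes were marked. A wider window can only raise such counts, and the shares of all protein-coding genes and of inner members within 20 kb were not computed. The edge count was 3 with the outermost 3 genes and 18 with the outermost 10. Of 56 recomputed values of 7 results, 30 stayed within 1.5 times the reported one. Counting older symbols, chosen after seeing the data, added Krt90. No paired analysis was possible because there was 1 library of each kind. Since no library was repeated, biological and technical variation are unknown, and genes without a peak may carry a mark too weak for this depth.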

Other observations

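Some peaks in the keratin clusters were joined to no member. The peak of highest fold enrichment in the chromosome 15 cluster, 4.02-fold with a q-value of 0.00127, was 326 bp wide at chr15:101876922-101877247, between Krt77 (7.22 kb away) and Krt76 (7.10 kb away), and had no gene in the deposited annotation. In the chromosome 11 cluster a peak of 843 bp at 3.53-fold (q-value 0.00968) lay at chr11:99267904-99268746 between Krt222 and Krt24, also with no gene. A peak of 662 bp at chr11:99395583-99396244, enriched 3.20-fold, had no gene in the deposited annotation but lay inside Krt10 as the gene table gives it. Krtap29-1, unmarked by the deposited annotation, was 0.544 kb from a peak by its gene table position.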
